A study of Mus musculus with 16 samples.

Results

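The genes of entry into and passage through mitosis were followed across 16 Affymetrix arrays of mouse small cell lung cancer cells, 8 groups of 2 arrays from 2 lines and 4 vector states. The set was a named list of 41 genes, chosen by name and not by their values. Of these, 38 had a probe set annotated with their symbol alone, and all 38 passed the filter on dim probe sets, among 8777 tested genes of 12393 with a symbol of their own. Ccnb1, Cdca8 and Espl1 were not analysed here. Where a gene had several probe sets, the one of highest average signal was read, and all values are log2 signals or differences of log2 signals. The lines, 3583T3 and 3151T4, each came from 1 mouse lung tumour that was digested, filtered and put into culture. Each was measured without transfection (control), with an MSCV retroviral vector for FLAG-tagged mouse Nfib selected by G418, with an MSCV vector for L-myc (Mycl1) selected by puromycin, and with both. The design asks what Nfib, a nuclear factor I transcription factor, and Mycl1, a MYC family transcription factor, do to expression alone and together. The control cells carried no empty vector and no drug was named for them, so transgene, vector and selection cannot be told apart in any comparison with control. The labels do not say whether replicates came from separate cultures. The tests therefore weigh each difference against a spread between arrays that may be technical alone.

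Cells enter mitosis when Cdk1 bound to a B-type cyclin becomes active. Polo-like and Aurora kinases then build the spindle, condensin compacts the chromosomes, and the spindle checkpoint holds back the anaphase-promoting complex until every kinetochore is attached. That complex, switched on by Cdc20, then has securin and the cyclins degraded, and cytokinesis follows. Most of these genes are transcribed late in the cell cycle. The DREAM repressor complex holds them down in resting cells and B-Myb with FoxM1 activates them later, through a promoter motif called the cell cycle genes homology region (CHR) and nearby CCAAT boxes that NF-Y binds. In a proliferating line their messenger level follows the share of cells in late cycle, and small cell lung cancer is known for rapid division.

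Several facts of the series touch the values. The Mycl probe set read 2.12 to 2.55 on arrays labelled control or Nfib and 9.08 to 11.05 on arrays labelled with a Mycl1 vector, with 2 exceptions. The array labelled 3583T3 Nfib replicate 2 read 10.22, and the array labelled 3583T3 Nfib+Mycl1 replicate 2 read 2.67. Those 2 arrays go against their labels, and counts are given with and without them. Leukocyte markers, of which 14 of 15 passed the filter, averaged 6.86 to 9.15 on the 4 control arrays and 2.71 to 3.60 on the 12 vector arrays, with Lyz2 reaching 11.78 and Adgre1 never above 3.93. Fibroblast markers, 10 of 10 measured, averaged 8.20 to 9.89 on control arrays, 9.98 to 11.55 on arrays labelled Nfib, 8.55 to 8.83 with Mycl1 and 9.81 to 10.16 on arrays labelled with both. Leukocyte markers were lower with every vector, and fibroblast markers higher under the Nfib label, while the fibroblast range with Mycl1 lay inside that of control and the range with both overlapped it. The part of either list in the mitotic values was not tested. Of 13 neuroendocrine markers on the array, 8 stayed dim on all 16 arrays (Chga, Chgb, Syp, Syt1, Dll3, Scg3, Neurod1 and Nkx2-1, none above 4.24), while 5 passed the filter. Ncam1 read 11.52 to 12.37 and Uchl1 7.88 to 11.39 on the 16 arrays, Ddc ran from 1.42 to 10.71, and Insm1 and Scg2 reached 5.51 and 4.99. In bulk RNA, fewer dividing cells and less of a messenger in each cell cannot be told apart.

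The promoters of the members share sequence that the choice by name did not use. RefSeq promoters (build GRCm38.p6, 250 bases before to 50 after the start site) were listed for 32 of the 38. The CHR, searched as TTTGAA or TTCGAA on either strand, was present in 25 of the 32 (78.1%), against 13.5% of the 7123 listed promoters of tested genes and 19.4% of all 27025 listed. The CCAAT box, searched as CCAAT on either strand, was present in 25 of the 32 (78.1%) against 38.6% of tested genes. Both stood in 23 of the 32 (71.9%) against 5.45% of tested genes. The E box CACGTG, the core site of MYC proteins, was in 1 of the 32 (3.12%), that of Ttk, against 10.4% of tested genes. TTGGC, a partial site of nuclear factor I, was in 23 of the 32 (71.9%) against 50.8%, but it overlaps the reversed CCAAT box wherever the letters read ATTGGC. Among 83 listed promoters of other mitotic genes 37.3% held a CHR, and among 32 of DNA replication and S phase genes 15.6% did. These are matches of letters in a window and say nothing of binding. Members without a CHR in the window were Nek2, Mad2l1, Cenpe, Birc5, Ncaph, Nusap1 and Pttg1.

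The promoters of 6 members are printed. These genes, from 4 roles, were each called in 4 to 7 of the 18 vector comparisons and hold 31 of the members' 65 calls there. Kif2c and Kif20a were also called in 4. The Kif2c promoter, with a CHR at -103 and no CCAAT box, is not printed, and none was listed for Kif20a. Capitals mark each CHR (also TTCAAA, its reverse) and each CCAAT box (also ATTGG, its reverse). They are Ccnb2 (chr9:70421505-70421804, minus strand), Ttk (chr9:83834439-83834738, plus strand), Bub1b (chr2:118597961-118598260, plus strand), Ncapd2 (chr6:125191537-125191836, minus strand), Ncaph (chr2:127133905-127134204, minus strand) and Kif23 (chr9:61946750-61947049, minus strand).
Ccnb2: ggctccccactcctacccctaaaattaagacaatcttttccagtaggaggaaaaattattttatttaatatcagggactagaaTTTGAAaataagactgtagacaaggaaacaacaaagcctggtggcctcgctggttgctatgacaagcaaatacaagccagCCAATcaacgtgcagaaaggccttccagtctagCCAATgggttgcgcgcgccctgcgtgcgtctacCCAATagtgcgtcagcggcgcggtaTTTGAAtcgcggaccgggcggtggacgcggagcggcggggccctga
Ttk: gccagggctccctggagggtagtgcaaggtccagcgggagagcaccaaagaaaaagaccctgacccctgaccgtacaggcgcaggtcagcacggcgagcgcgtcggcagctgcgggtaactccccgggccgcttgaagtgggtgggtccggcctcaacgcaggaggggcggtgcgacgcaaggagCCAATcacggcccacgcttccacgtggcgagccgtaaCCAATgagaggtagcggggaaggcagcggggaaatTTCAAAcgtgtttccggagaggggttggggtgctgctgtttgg
Bub1b: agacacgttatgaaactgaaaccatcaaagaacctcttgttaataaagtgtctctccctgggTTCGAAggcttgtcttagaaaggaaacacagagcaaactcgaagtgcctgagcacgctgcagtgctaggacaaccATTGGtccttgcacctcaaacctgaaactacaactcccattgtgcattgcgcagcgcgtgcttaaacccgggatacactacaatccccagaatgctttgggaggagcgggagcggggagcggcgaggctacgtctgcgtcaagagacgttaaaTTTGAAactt
Ncapd2: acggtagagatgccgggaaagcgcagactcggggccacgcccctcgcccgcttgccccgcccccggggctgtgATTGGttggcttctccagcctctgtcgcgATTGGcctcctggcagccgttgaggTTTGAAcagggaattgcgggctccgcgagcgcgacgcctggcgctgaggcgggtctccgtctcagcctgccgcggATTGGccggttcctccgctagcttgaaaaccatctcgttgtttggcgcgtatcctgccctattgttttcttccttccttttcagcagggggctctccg
Ncaph: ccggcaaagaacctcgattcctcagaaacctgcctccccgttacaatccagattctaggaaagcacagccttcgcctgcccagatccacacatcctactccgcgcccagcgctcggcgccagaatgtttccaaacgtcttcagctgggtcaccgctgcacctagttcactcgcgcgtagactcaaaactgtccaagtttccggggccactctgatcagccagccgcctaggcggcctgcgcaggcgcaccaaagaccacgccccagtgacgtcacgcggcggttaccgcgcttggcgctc
Kif23: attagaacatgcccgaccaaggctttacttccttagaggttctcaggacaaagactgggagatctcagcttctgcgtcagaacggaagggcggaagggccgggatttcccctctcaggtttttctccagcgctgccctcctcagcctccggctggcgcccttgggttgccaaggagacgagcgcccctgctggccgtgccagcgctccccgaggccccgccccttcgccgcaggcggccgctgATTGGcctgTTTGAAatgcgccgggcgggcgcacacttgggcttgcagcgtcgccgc
Ccnb2 has 3 CCAAT boxes, at -87, -54 and -21, and CHR matches at -167 and 4, counted from 0 at the start site. Ttk holds boxes at -65 and -28 with a CHR at 7, and Kif23 a box at -7 with a CHR at 2. Ncapd2 has 3 boxes and a CHR at -123, and Bub1b has CHR matches at -188 and 40 with 1 box at -113. Ncaph, a condensin subunit that rose with Ttk and Kif23 in the tests below, has neither motif in this window.

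**Figure D1:**
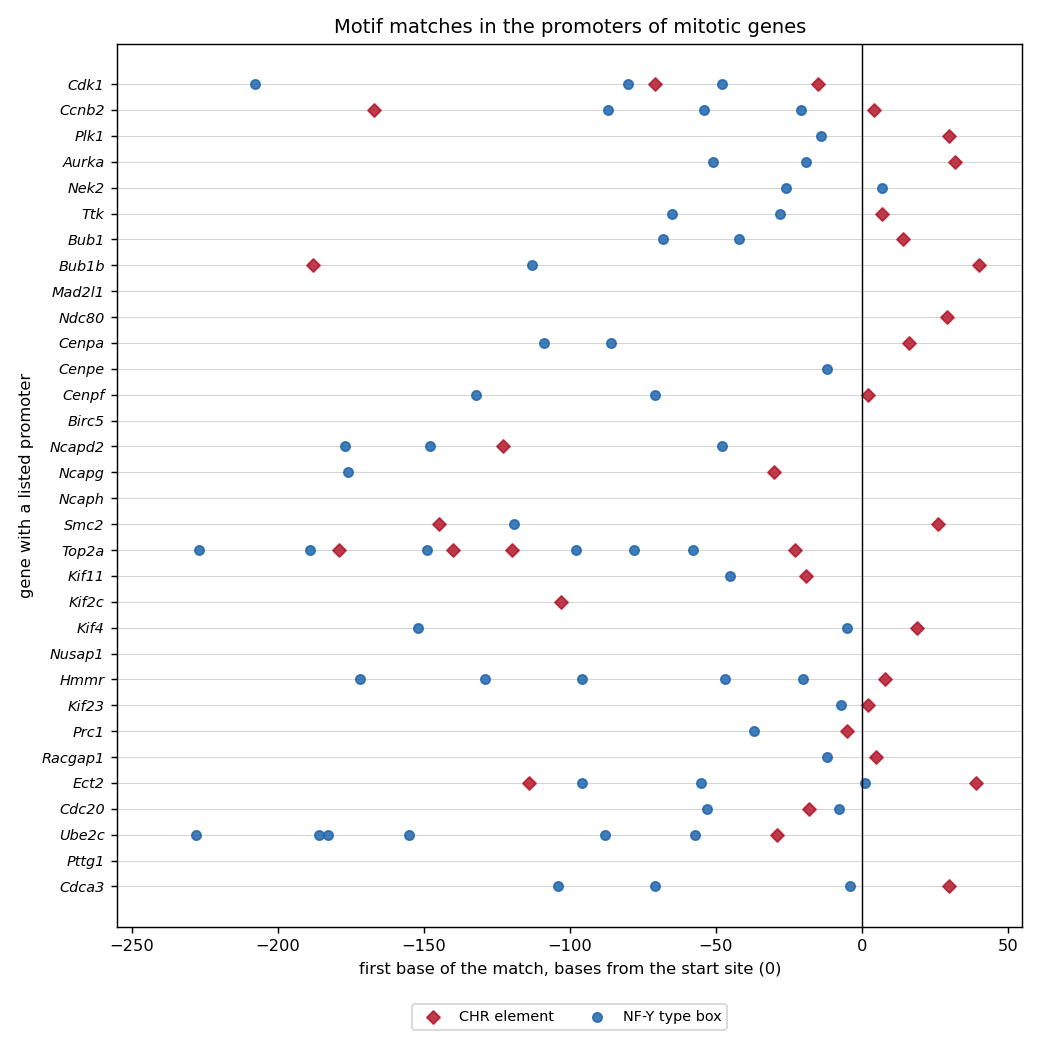
Position of each CHR (red diamonds) and CCAAT box (blue circles, labelled as NF-Y type boxes) in the 32 listed promoters, in bases from the annotated start site, on either strand. Boxes lie mostly upstream of the start site, CHR matches lie on both sides of it, and 5 genes (Mad2l1, Birc5, Ncaph, Nusap1 and Pttg1) show neither.

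All members were well above the dim range. Mean log2 signals of their probe sets lay between 6.65 and 12.86, and 28 of the 38 above log2 10, without a comparison of amounts between genes, since probe sets differ in brightness. Arrays of 3151T4 without Mycl1 stood low. Of 38 members, 3 and 6 lay above their own 16-array mean on the 2 control arrays of 3151T4, and 8 and 9 on its Nfib arrays. On its Mycl1 arrays 22 and 21 did, and on its arrays with both vectors 21 and 28. In 3583T3 the count was 21 to 32 on every array, control included. Over all tested genes, 45.2% to 56.5% lay above their own mean on any array.

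**Figure D2:**
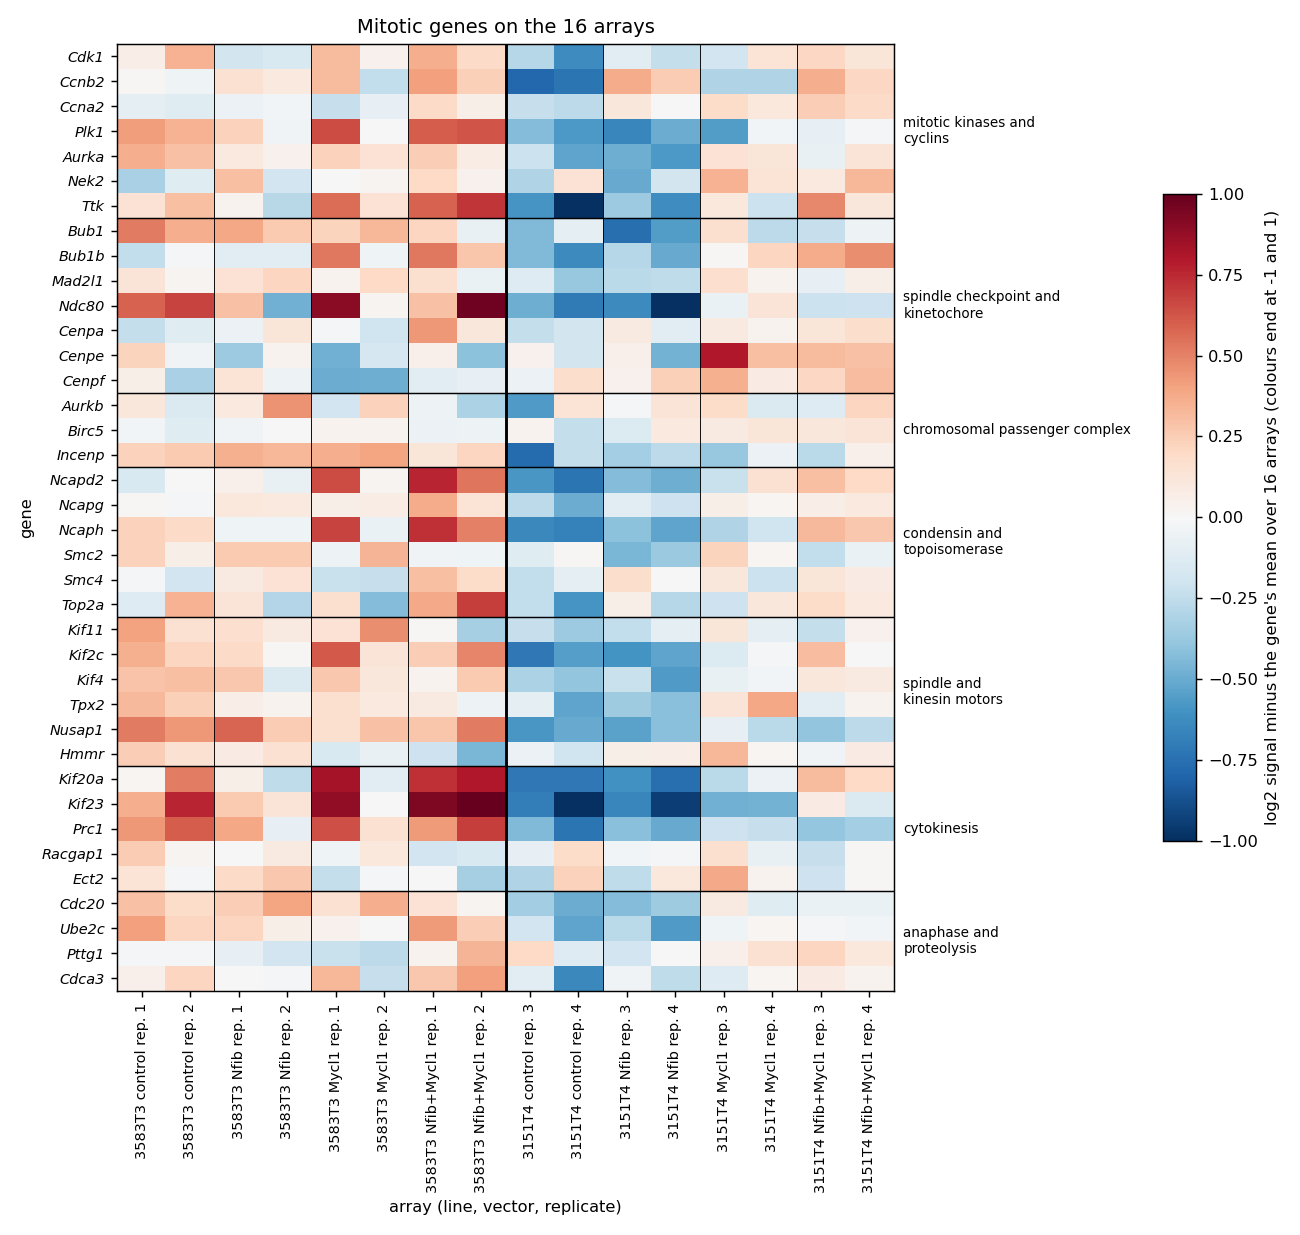
Each cell is 1 gene on 1 array, coloured by its log2 signal minus that gene's mean over the 16 arrays, with the 38 genes grouped by role and the 8 groups by line and vector. The blue block over control and Nfib arrays of 3151T4 spans most roles, while Birc5, whose signal ranged over 0.37, is nearly uncoloured.

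**Figure D3:**
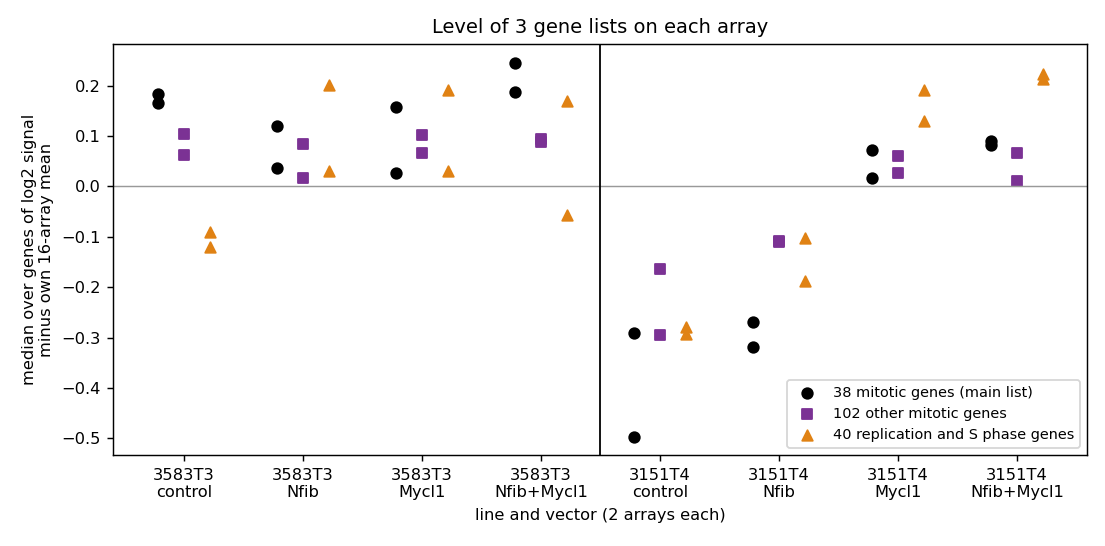
Each point is the median over a gene list of log2 signal minus the gene's 16-array mean on 1 array, for the 38 mitotic genes, 102 other mitotic genes and 40 DNA replication genes. For the 38 genes the control arrays of 3151T4 sit at -0.29 and -0.50 and its Nfib arrays at -0.27 and -0.32, against 0.02 to 0.09 on its arrays with a Mycl1 vector and 0.03 to 0.25 on all arrays of 3583T3.

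Within 3151T4 most calls came with the 2 vectors together. With both, 11 of 38 members rose and 0 fell against control, among them cyclin B2, the checkpoint kinase Ttk, the checkpoint protein Bub1b and the condensin subunits Ncaph and Ncapd2 (limma, Benjamini-Hochberg adjusted over 8777 genes, called under 0.05, n = 2 arrays per group). The 11 are 28.9% of members, against 14.6% of all tested genes called higher and 15.2% called lower. The median difference was 0.37 over members and 0.0047 over all genes. With Mycl1 alone 6 members rose and 0 fell, which is 15.8% of members against 7.77% of genes called higher and 8.48% lower, with medians of 0.36 and 0.02. With Nfib alone 1 member rose, Ccnb2, and 0 fell, 2.63% of members against 7.91% of genes called higher and 5.86% lower, with medians of 0.08 and 0.03. Both arrays lay above both controls for 28 members with both vectors (73.7%, against 35.6% of all genes), for 27 with Mycl1 (71.1%, against 32.1%) and for 9 with Nfib (23.7%, against 33.2%). All of these share the 2 control arrays of 3151T4, on which replicate 4 was the lower for most members (Ndc80, Ttk and Cdk1 among them). Without that array 6 members rose with both vectors and 0 with Mycl1. Leaving out replicate 3 of the Nfib+Mycl1 arrays left 4 for both vectors, and leaving out Mycl1 replicate 3 or 4 left 1 or 0 for Mycl1. Without either Mycl1 array of 3583T3, which enters through the shared estimate of spread, Mycl1 gave 11.

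Among 7 kinases and cyclins, 4 rose in 3151T4 with both vectors, 3 with Mycl1 and 1 with Nfib. Ccnb2 encodes cyclin B2, a partner of Cdk1. Its log2 signal in 3151T4 was 10.07 and 10.12 in control, 11.22 and 11.11 with Nfib, 10.55 and 10.55 with Mycl1 and 11.21 and 11.06 with both. In 3583T3 it was 10.87 and 10.81 in control, 11.00 and 10.95 under the Nfib label, 11.17 and 10.61 with Mycl1 and 11.27 and 11.09 under the label of both. The 3151T4 controls were the lowest of all 16 arrays, and every Nfib array of that line lay above every Mycl1 array. Ccnb2 rose by 1.07 ± 0.17 (SE, adjusted p = 0.000445) with Nfib, a 2.1-fold change of signal, and by 1.05 ± 0.17 (SE, adjusted p = 0.000586) with both, in each case under every one of 25 alternative settings. With Mycl1 alone the difference was 0.46 ± 0.17 (SE, adjusted p = 0.0741). Nfib against Mycl1 gave 0.61 ± 0.17 (SE, adjusted p = 0.0116), so Ccnb2 was the 1 member called that stood higher with Nfib than with Mycl1. In 3583T3 the arrays labelled Nfib differed from control by 0.14 ± 0.17 (SE, adjusted p = 0.685). The response to Nfib differed between lines by -0.93 ± 0.23 (SE, adjusted p = 0.0268), 3583T3 minus 3151T4. It was no longer called without the 2 arrays that go against their labels (-0.91), which leaves 1 array labelled Nfib in 3583T3. That call was also lost when any 1 of the 8 arrays compared was left out, 3583T3 Nfib replicate 1 excepted.

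Cdk1, the kinase itself, read in 3151T4 11.84 and 11.49 in control, 12.01 and 11.88 with Nfib, 11.93 and 12.26 with Mycl1 and 12.33 and 12.24 with both. In 3583T3 it read 12.19 and 12.47 in control, 11.94 and 11.97 under the Nfib label, 12.44 and 12.17 with Mycl1 and 12.48 and 12.31 under the label of both. The 2 groups labelled Nfib had nearly the same level in the 2 lines, and in 3583T3 both such arrays were below both controls. The kinase rose with both vectors in 3151T4 by 0.62 ± 0.16 (SE, adjusted p = 0.0114), not called without control replicate 4 or without Nfib+Mycl1 replicate 3. With Mycl1 it differed by 0.43 ± 0.16 (SE, adjusted p = 0.0818) and with Nfib by 0.28 ± 0.16 (SE, adjusted p = 0.305). Ccna2, cyclin A2, which acts from S phase into early mitosis, had 3151T4 levels of 11.24 and 11.22 in control, 11.59 and 11.49 with Nfib, 11.66 and 11.59 with Mycl1 and 11.72 and 11.67 with both. Its 3583T3 levels were 11.39 and 11.36 in control, 11.42 and 11.45 under the Nfib label, 11.24 and 11.40 with Mycl1 and 11.67 and 11.54 under the label of both. Every vector array of 3151T4 exceeded its controls, and Ccna2 rose with Mycl1 by 0.39 ± 0.12 (SE, adjusted p = 0.036) and with both by 0.47 ± 0.12 (SE, adjusted p = 0.0103).

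Ttk (Mps1) is the kinase that starts checkpoint signalling at kinetochores, and its promoter is the one above with an E box. Levels in 3151T4 were 9.44 and 8.90 in control, 9.67 and 9.41 with Nfib, 10.14 and 9.81 with Mycl1 and 10.51 and 10.14 with both. Levels in 3583T3 were 10.18 and 10.33 in control, 10.07 and 9.75 under the Nfib label, 10.59 and 10.17 with Mycl1 and 10.62 and 10.74 under the label of both. Control replicate 4 of 3151T4 was the lowest of all arrays, and in that line every array with a Mycl1 vector exceeded every array without one. Ttk rose by 0.81 ± 0.22 (SE, adjusted p = 0.0251) with Mycl1 and by 1.16 ± 0.22 (SE, adjusted p = 0.00203) with both, the second under all 25 alternatives. Aurka (Aurora A) works at centrosomes and spindle poles. It read 10.18 and 9.87 in control, 9.91 and 9.82 with Nfib, 10.54 and 10.52 with Mycl1 and 10.32 and 10.53 with both in 3151T4. The readings in 3583T3 were 10.76 and 10.69 in control, 10.49 and 10.44 under the Nfib label, 10.63 and 10.54 with Mycl1 and 10.64 and 10.47 under the label of both. Nfib arrays of 3151T4 overlapped their controls, and Mycl1 arrays were above both. Aurka rose with Mycl1 by 0.50 ± 0.15 (SE, adjusted p = 0.0342), stood lower with Nfib than with Mycl1 by -0.66 ± 0.15 (SE, adjusted p = 0.00347), and differed by 0.40 ± 0.15 (SE, adjusted p = 0.0567) with both against control.

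Plk1, the polo-like kinase of centrosome maturation and spindle building, had levels in 3151T4 of 8.07 and 7.93 in control, 7.86 and 8.01 with Nfib, 7.95 and 8.48 with Mycl1 and 8.43 and 8.49 with both. Its levels in 3583T3 were 8.92 and 8.86 in control, 8.74 and 8.47 under the Nfib label, 9.16 and 8.51 with Mycl1 and 9.12 and 9.14 under the label of both. In 3151T4 Mycl1 replicate 4 and the arrays with both vectors stood above the others of the line, and no comparison with control was called. Nek2, a kinase of centrosome separation, was not called in any of 18 vector comparisons and differed by 0.29 ± 0.23 (SE, adjusted p = 0.361) with both.

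**Figure D4:**
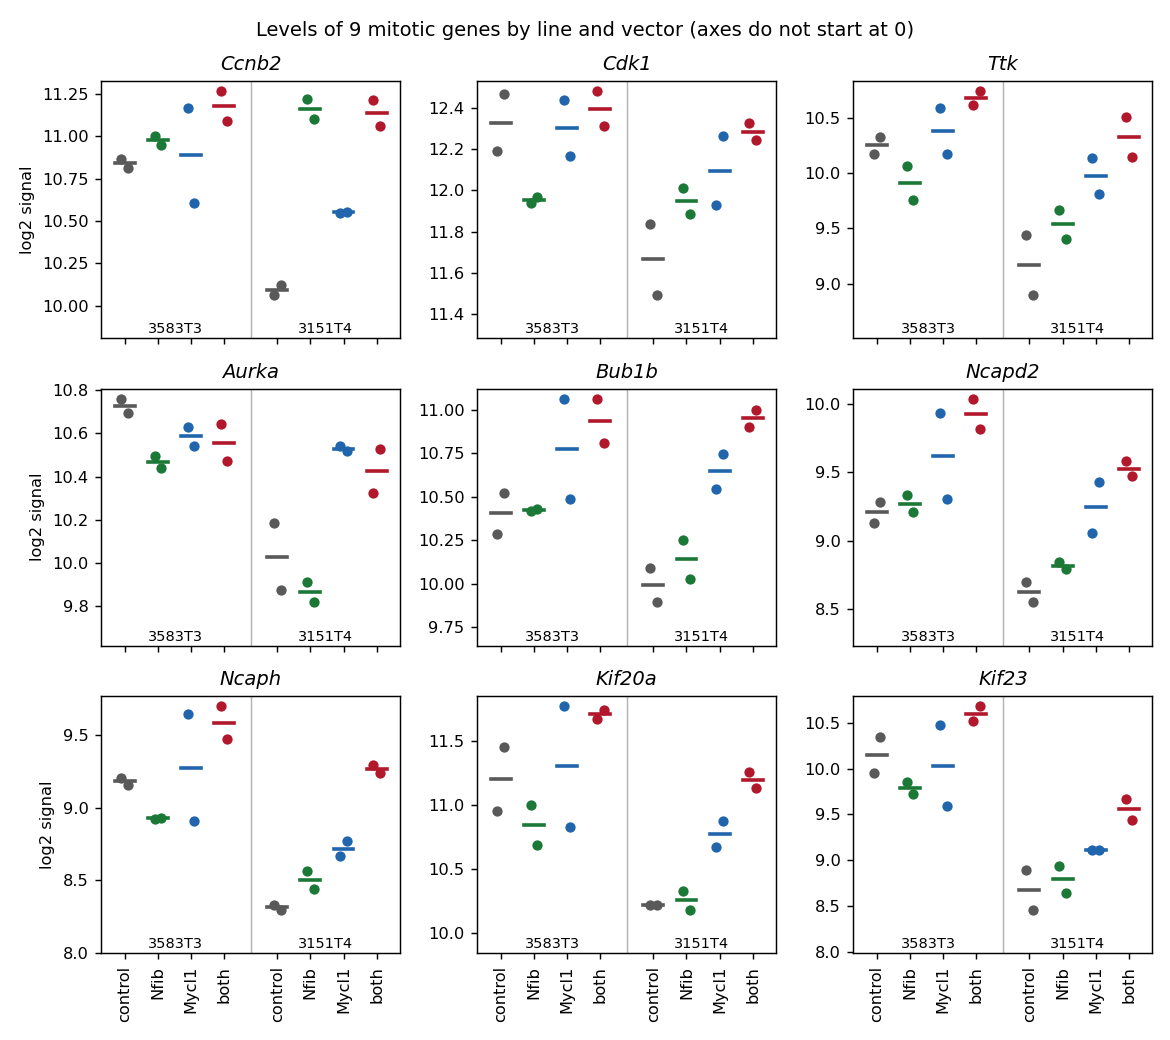
Log2 signal of 9 genes in each group, 1 point per array and a bar at the mean of the 2 arrays, with 3583T3 to the left and 3151T4 to the right of each panel and axes that do not start at 0. Ccnb2 is high with Nfib in 3151T4, Aurka is not, and in 3151T4 Ncaph, Kif20a and Kif23 are highest with both vectors.

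Among checkpoint and kinetochore genes, 1 of 7 rose in 3151T4 with Mycl1 and the same gene with both. It was Bub1b, which encodes BubR1, a subunit of the complex that restrains Cdc20. Its 3151T4 levels were 10.09 and 9.89 in control, 10.25 and 10.03 with Nfib, 10.55 and 10.75 with Mycl1 and 10.90 and 11.00 with both. Its 3583T3 levels were 10.29 and 10.52 in control, 10.42 and 10.43 under the Nfib label, 11.06 and 10.49 with Mycl1 and 11.06 and 10.81 under the label of both. In 3151T4 all arrays with a Mycl1 vector exceeded all without one, and in 3583T3 Mycl1 replicate 1 and both arrays labelled with both vectors stood above the rest. Bub1b rose in 3151T4 by 0.65 ± 0.19 (SE, adjusted p = 0.0312) with Mycl1 and by 0.96 ± 0.19 (SE, adjusted p = 0.00252) with both, a 1.94-fold change, and the second held under all 25 alternatives. In 3583T3 the differences were 0.37 ± 0.19 (SE, adjusted p = 0.285) and 0.53 ± 0.19 (SE, adjusted p = 0.0766). Ndc80, the kinetochore subunit that grips microtubules, varied more. It read 7.59 and 7.38 in control, 7.44 and 6.99 with Nfib, 8.02 and 8.21 with Mycl1 and 7.86 and 7.88 with both in 3151T4. In 3583T3 its readings were 8.67 and 8.76 in control, 8.37 and 7.60 under the Nfib label, 8.98 and 8.11 with Mycl1 and 8.38 and 9.05 under the label of both. Nfib replicate 4 of 3151T4 was the lowest array, the 2 Mycl1 replicates of 3583T3 lay as far apart as many groups, and no comparison with control was called.

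Of the other checkpoint and kinetochore members 0 were called against control within a line with the probe sets read. Bub1, a kinase that recruits checkpoint proteins, differed by 0.21 ± 0.18 (SE, adjusted p = 0.44) with Mycl1 and by 0.13 ± 0.18 (SE, adjusted p = 0.61) with both in 3151T4, where its levels ran from 10.20 to 11.11. A dimmer Bub1 probe set (mean 6.10), not tested alone, gave 1.03 with Mycl1 and 0.63 with both there. In 3583T3 that probe set gave 0.38 with Mycl1 and -0.05 under the label of both. Mad2l1 (Mad2), which binds and blocks Cdc20, differed by 0.35 ± 0.14 (SE, adjusted p = 0.0949) with Mycl1. Cenpe, a kinetochore motor, read 9.58 and 9.09 with Mycl1 against 8.82 and 8.60 in 3151T4 control and was not called (0.62 ± 0.25 SE, adjusted p = 0.0986). Cenpa, the histone H3 variant of centromeres, rose with both vectors over both lines (0.40 ± 0.11 SE, adjusted p = 0.0117), with like values in 3151T4 (0.36 ± 0.15 SE, adjusted p = 0.0931) and 3583T3 (0.45 ± 0.15 SE, adjusted p = 0.0663). Cenpf, a large kinetochore protein, was the 1 member lower in 3583T3 than in 3151T4 over all vectors.

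The chromosomal passenger complex, which corrects wrong attachments and guides cytokinesis, was not called in any of 18 vector comparisons with the probe sets read. Birc5 (survivin), a subunit, read 12.90 and 12.63 in control, 12.73 and 12.96 with Nfib, 12.95 and 12.98 with Mycl1 and 12.98 and 12.99 with both in 3151T4. In 3583T3 Birc5 read 12.83 and 12.74 in control, 12.83 and 12.86 under the Nfib label, 12.90 and 12.90 with Mycl1 and 12.81 and 12.81 under the label of both. The 16 values spanned 0.37, the smallest range of any member. Aurkb (Aurora B), the kinase subunit, read in 3151T4 9.90 and 10.60 in control, 10.45 and 10.60 with Nfib, 10.65 and 10.32 with Mycl1 and 10.34 and 10.68 with both. Its 3583T3 readings were 10.58 and 10.32 in control, 10.57 and 10.92 under the Nfib label, 10.28 and 10.70 with Mycl1 and 10.42 and 10.15 under the label of both. The 2 controls of 3151T4 lay further apart than the means of any 2 of its groups. Incenp, the scaffold subunit, read from 11.14 to 11.96 in 3151T4 and from 12.03 to 12.30 in 3583T3, with no overlap between lines. In 3151T4 it differed from control by 0.28 with Mycl1 and 0.40 with both. Its other, dimmer probe sets (means 8.10 and 4.88) gave 0.63 and 0.68 with Mycl1 and 1.07 and 0.81 with both there. In 3583T3 they gave -0.06 and -0.07 with Mycl1 and 0.12 and 0.25 under the label of both. Those probe sets were not tested alone.

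Condensin, which compacts chromosomes, was called in its 3 non-SMC subunits in 3151T4 with both vectors. Ncapd2 read in 3151T4 8.70 and 8.55 in control, 8.84 and 8.79 with Nfib, 9.06 and 9.43 with Mycl1 and 9.58 and 9.48 with both. In 3583T3 the same subunit read 9.13 and 9.29 in control, 9.33 and 9.21 under the Nfib label, 9.93 and 9.30 with Mycl1 and 10.04 and 9.82 under the label of both. Both arrays with both vectors exceeded every control and Nfib array in each line, and Mycl1 replicate 1 of 3583T3 stood well above its replicate. Ncapd2 rose with both vectors by 0.90 ± 0.21 (SE, adjusted p = 0.00602) in 3151T4 and by 0.72 ± 0.21 (SE, adjusted p = 0.0338) in 3583T3, the latter lost when any of 3 of the 4 arrays compared was left out. Ncaph, the subunit that closes the condensin ring, had 3151T4 levels of 8.33 and 8.30 in control, 8.56 and 8.44 with Nfib, 8.67 and 8.77 with Mycl1 and 9.30 and 9.24 with both. Its levels in 3583T3 were 9.20 and 9.16 in control, 8.92 and 8.93 under the Nfib label, 9.64 and 8.91 with Mycl1 and 9.70 and 9.47 under the label of both. Ncaph rose in 3151T4 with both vectors by 0.95 ± 0.21 (SE, adjusted p = 0.00447), under all 25 alternatives, and differed by 0.40 ± 0.21 (SE, adjusted p = 0.194) with Mycl1. Its other probe set differed with both vectors by 0.20 in 3151T4 and by -0.29 in 3583T3, and with the mean of the 2 the 3151T4 value was 0.58 (adjusted p = 0.0164). Ncapg, another condensin I subunit, rose there with Mycl1 (0.42 ± 0.13 SE, adjusted p = 0.0404) and with both (0.46 ± 0.13 SE, adjusted p = 0.0168).

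The ATPase core of condensin is formed by Smc2 and Smc4. Smc2 read 11.28 and 11.41 in control, 10.95 and 11.03 with Nfib, 11.63 and 11.42 with Mycl1 and 11.16 and 11.34 with both in 3151T4. It read 11.63 and 11.46 in control, 11.66 and 11.67 under the Nfib label, 11.35 and 11.74 with Mycl1 and 11.37 and 11.36 under the label of both in 3583T3. Nfib arrays of 3151T4 were the 2 lowest of all 16, and Smc2 stood lower with Nfib than with Mycl1 by -0.54 ± 0.15 (SE, adjusted p = 0.0131), while Nfib against control gave -0.36 ± 0.15 (SE, adjusted p = 0.142). Smc4, its partner, rose with both vectors over the 2 lines (0.31 ± 0.10 SE, adjusted p = 0.0257), not called in either line alone. Another Smc4 probe set went the other way with both vectors, by -0.23 in 3583T3 and -0.11 in 3151T4. A further one went the same way, by 0.33 in 3583T3 and 0.68 in 3151T4. With the mean of the Smc4 probe sets the difference over both lines was 0.21 (adjusted p = 0.126), not called. The call was also lost without control replicate 2 or Nfib+Mycl1 replicate 1 of 3583T3, or control replicate 3 of 3151T4. Top2a, the topoisomerase that untangles sister DNA, had 3151T4 levels of 11.32 and 10.98 in control, 11.63 and 11.28 with Nfib, 11.36 and 11.68 with Mycl1 and 11.75 and 11.67 with both. Its 3583T3 levels were 11.44 and 11.92 in control, 11.70 and 11.28 under the Nfib label, 11.73 and 11.13 with Mycl1 and 11.95 and 12.26 under the label of both. Replicates of Top2a lay far apart in most groups, and with both vectors over both lines the rise was 0.49 ± 0.18 (SE, adjusted p = 0.0473).

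Of 6 spindle genes 1 rose in 3151T4 with Mycl1 and a different 1 with both. Tpx2, which activates Aurora A and nucleates microtubules, read in 3151T4 11.29 and 10.85 in control, 11.03 and 10.96 with Nfib, 11.51 and 11.77 with Mycl1 and 11.27 and 11.41 with both. In 3583T3 Tpx2 read 11.71 and 11.62 in control, 11.45 and 11.42 under the Nfib label, 11.54 and 11.48 with Mycl1 and 11.47 and 11.33 under the label of both. Tpx2 rose with Mycl1 in 3151T4 by 0.57 ± 0.15 (SE, adjusted p = 0.0228), differed with both vectors by 0.27 ± 0.15 (SE, adjusted p = 0.19), and stood lower with Nfib than with Mycl1 by -0.64 ± 0.15 (SE, adjusted p = 0.00506). With the mean of its probe sets the Mycl1 value was 0.42 (adjusted p = 0.0577), not called. Kif2c (MCAK), a kinesin that shortens microtubules, read 8.37 and 8.54 in control, 8.48 and 8.55 with Nfib, 8.95 and 9.06 with Mycl1 and 9.39 and 9.08 with both in 3151T4. Its readings in 3583T3 were 9.44 and 9.30 in control, 9.27 and 9.10 under the Nfib label, 9.70 and 9.21 with Mycl1 and 9.33 and 9.57 under the label of both. It rose with both vectors in 3151T4 by 0.78 ± 0.19 (SE, adjusted p = 0.00903) and differed by 0.55 ± 0.19 (SE, adjusted p = 0.0665) with Mycl1. Kif11 (Eg5), which pushes the poles apart, Kif4, a motor on chromosome arms, and Nusap1, a microtubule bundler, were not called against any vector state with the probe sets read. Their 3151T4 differences with both vectors were 0.20, 0.46 and 0.21. Dimmer Kif11 probe sets gave 0.60 and 0.61 with both there, and 0.57 and 0.71 with Mycl1. A dimmer Nusap1 probe set gave 0.49 with both and 0.69 with Mycl1. Under the label of both in 3583T3 these Kif11 sets gave 0.11 and -0.12 and this Nusap1 set 0.12. They were not tested alone.

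Hmmr, a spindle-associated hyaluronan receptor, was the 1 member that fell in a comparison with control. Its 3583T3 levels were 11.12 and 11.02 in control, 10.96 and 11.03 under the Nfib label, 10.72 and 10.80 with Mycl1 and 10.66 and 10.41 under the label of both. In 3151T4 Hmmr read 10.81 and 10.67 in control, 10.93 and 10.94 with Nfib, 11.20 and 10.89 with Mycl1 and 10.84 and 10.96 with both. Every array of 3583T3 with a Mycl1 label lay below its 4 control and Nfib arrays. Of the 2 arrays that go against their labels, the one labelled Nfib read 11.03 and the one labelled with both 10.41. On arrays labelled with both Hmmr fell against control by 0.53 ± 0.14 (SE, adjusted p = 0.0267) on the log2 scale. With the mean of its probe sets the difference was -0.53 (adjusted p = 0.0815), not called. Without the 2 arrays that go against their labels, which leaves 1 array labelled with both, it was -0.41, not called.

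Of 5 cytokinesis genes the 2 kinesins of the central spindle rose in 3151T4 with both vectors. Kif20a (MKLP2) carries the passenger complex to the midzone. It read 10.22 and 10.22 in control, 10.33 and 10.18 with Nfib, 10.67 and 10.88 with Mycl1 and 11.25 and 11.13 with both in 3151T4. In 3583T3 it gave 10.95 and 11.45 in control, 11.00 and 10.69 under the Nfib label, 11.77 and 10.83 with Mycl1 and 11.67 and 11.74 under the label of both. Kif23 (MKLP1), the motor of centralspindlin, had 3151T4 levels of 8.90 and 8.46 in control, 8.93 and 8.65 with Nfib, 9.11 and 9.11 with Mycl1 and 9.67 and 9.44 with both. Kif23 levels in 3583T3 were 9.95 and 10.35 in control, 9.85 and 9.72 under the Nfib label, 10.47 and 9.59 with Mycl1 and 10.52 and 10.68 under the label of both. For each gene the 3151T4 arrays ordered as control and Nfib, then Mycl1, then both, without overlap between those 3 sets. With both vectors Kif20a rose there by 0.97 ± 0.25 (SE, adjusted p = 0.0103) and Kif23 by 0.88 ± 0.25 (SE, adjusted p = 0.0202). Racgap1, the other subunit of centralspindlin, differed by -0.16 ± 0.15 (SE, adjusted p = 0.437), and Ect2, the exchange factor that starts the contractile ring, by -0.06 ± 0.20 (SE, adjusted p = 0.831). Prc1, which bundles antiparallel microtubules, read in 3151T4 11.30 and 11.01 in control, 11.33 and 11.24 with Nfib, 11.54 and 11.51 with Mycl1 and 11.36 and 11.40 with both. Its 3583T3 readings were 12.18 and 12.35 in control, 12.13 and 11.66 under the Nfib label, 12.38 and 11.89 with Mycl1 and 12.16 and 12.44 under the label of both, all above every array of 3151T4.

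Anaphase genes gave no call against control with the probe sets read. Cdc20, the activator of the anaphase-promoting complex, read 10.51 and 10.36 in control, 10.43 and 10.50 with Nfib, 10.95 and 10.74 with Mycl1 and 10.79 and 10.79 with both in 3151T4. In 3583T3 its level was 11.15 and 11.04 in control, 11.10 and 11.25 under the Nfib label, 11.01 and 11.22 with Mycl1 and 11.01 and 10.89 under the label of both. All arrays of 3151T4 with a Mycl1 vector exceeded those without, with differences of 0.41 ± 0.14 (SE, adjusted p = 0.0601) with Mycl1 and 0.36 ± 0.14 (SE, adjusted p = 0.0669) with both. Ube2c, the conjugating enzyme of that complex, differed by 0.34 ± 0.14 (SE, adjusted p = 0.118) and 0.34 ± 0.14 (SE, adjusted p = 0.0894). Pttg1, the securin, differed by 0.13 ± 0.15 (SE, adjusted p = 0.535) with both, and Cdca3, a regulator of mitotic entry, by 0.44 ± 0.20 (SE, adjusted p = 0.106). A dimmer Cdc20 probe set (mean 9.99) differed with both vectors by 1.13 in 3151T4 and 0.51 in 3583T3, where the chosen set gave -0.15. Another Cdc20 probe set gave 0.37 and -0.34. Other Pttg1 probe sets gave 0.55 and 0.57 in 3151T4, and 0.42 and -0.11 in 3583T3. These probe sets were not tested alone.

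**Figure D5:**
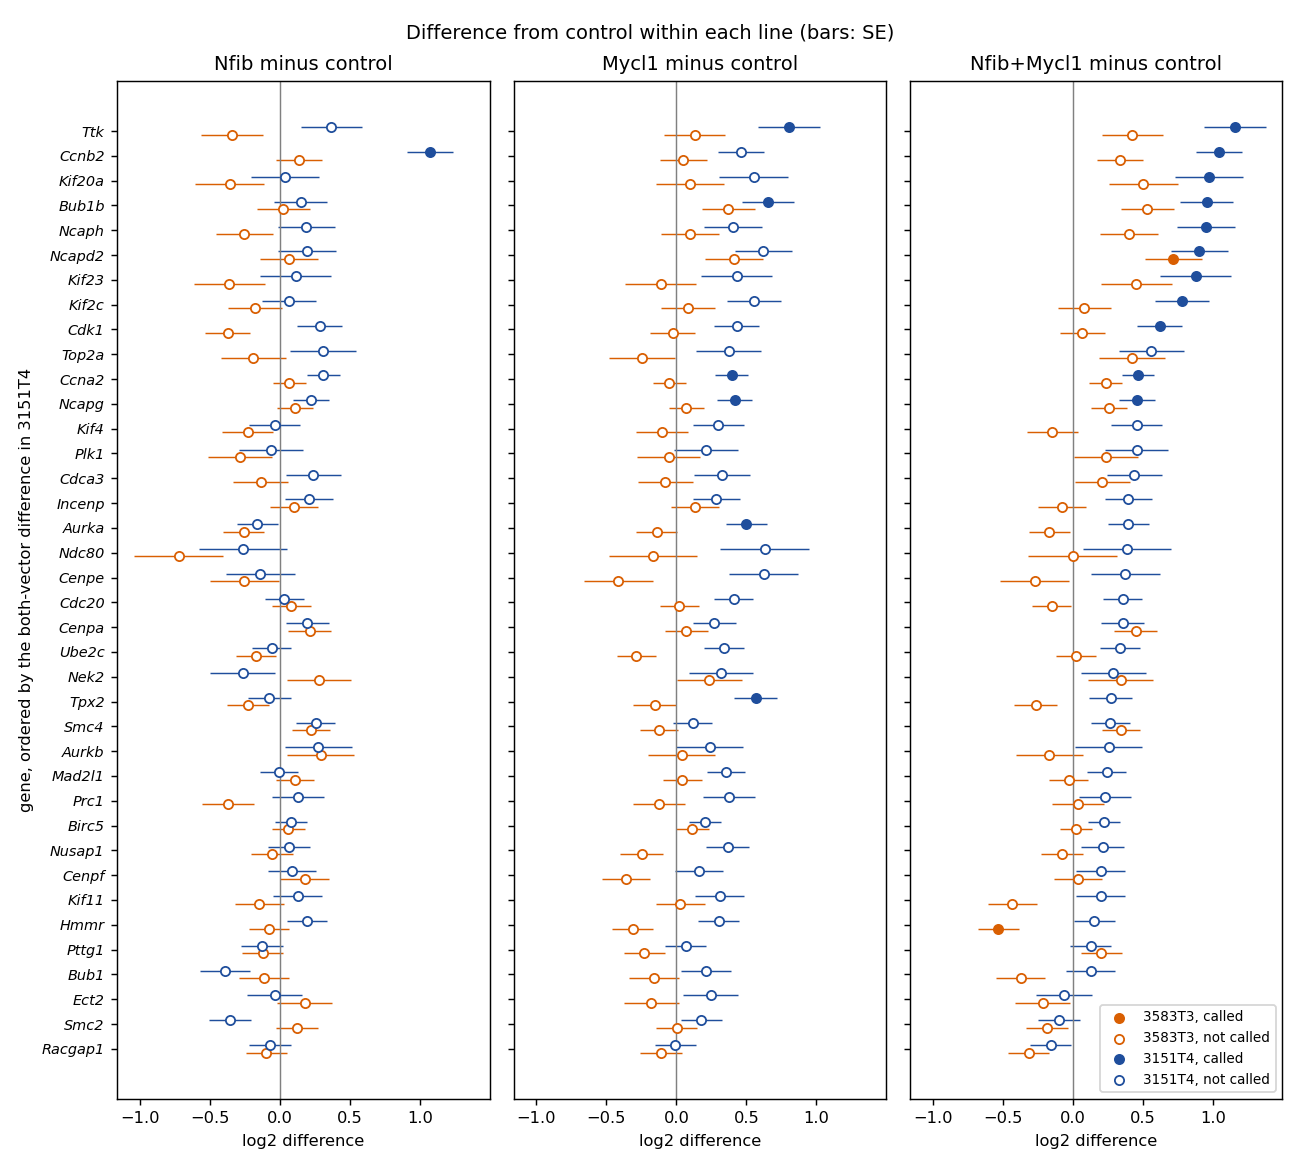
Difference of each vector group from control within a line, with its standard error, for the 38 genes in the order of the difference with both vectors in 3151T4, filled where called by limma at an adjusted p under 0.05. In the Mycl1 panel 37 of 38 points of 3151T4 lie above 0 and 17 of 38 of 3583T3 do.

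In 3583T3 few members differed from control. On arrays labelled with both vectors 1 rose (Ncapd2) and 1 fell (Hmmr), against 7.13% and 6.53% of all genes. With Mycl1 0 were called, against 2.94% of genes called either way, and 1 (2.63%) had an unadjusted p under 0.05, against 20.5% of genes. On arrays labelled Nfib 0 were called, against 10.1% of genes, and 2 (5.26%) had an unadjusted p under 0.05, against 22.7%. Median differences were 0.04, -0.05 and -0.11. Without the 2 arrays that go against their labels, 1 array labelled with both vectors remains, replicate 1. The difference of both vectors from control was then 0.83 for Ncapd2 and 0.61 for Cenpa. For each of these genes that array read highest of the 16 arrays. Without control replicate 1 or 2 of 3583T3 0 were called, without Nfib+Mycl1 replicate 1, or without Nfib replicate 3 or 4 of 3151T4, 1 was, and without Nfib replicate 1 the Nfib comparison gave 1. Within-line comparisons of vectors in 3583T3 gave 0 calls among members for both against Mycl1, both against Nfib and Nfib against Mycl1, where 7.63%, 0% and 7.26% of all genes were called either way. At an unadjusted p under 0.05 there were 9, 13 and 3 members (23.7%, 34.2% and 7.89%), against 23.9%, 15.5% and 21.3% of all genes. The Mycl probe set read 2.28 and 10.22 on the arrays labelled Nfib here, and 11.05 and 2.67 on those labelled with both. Both against Nfib thus set mixed groups against each other and could not show an effect of Mycl1. Its member median was 0.14, and 0.09 without the 2 arrays that go against their labels, which leaves 1 array on each side. Leaving out Mycl1 replicate 1 gave 5 members for both against Mycl1, leaving out Mycl1 replicate 3 or 4 of 3151T4 gave 1, and leaving out Mycl1 replicate 2 gave 3 for Nfib against Mycl1.

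Whether the lines responded differently was tested on the difference itself. For Mycl1, all 38 members had a smaller difference in 3583T3 than in 3151T4, with a median of -0.40 against 0.0003 over all genes, but limma called 0 of them, against 0.889% of genes called lower. At an unadjusted p under 0.05 there were 8 (21.1%), against 11.5% of all genes either way. For both vectors 34 of 38 were smaller in 3583T3, with a median of -0.35, and again 0 were called, against 1.66% of genes called lower. At an unadjusted p under 0.05 there were 10 (26.3%), against 17.1% of all genes. Without 3151T4 control replicate 3, 1 member was called for Mycl1, and without either Mycl1 array of 3583T3, 1 was for both vectors. For Nfib 1 member, Ccnb2, was called lower (background 4.1%). The 2 responses share the control arrays of each line, so the like sign over members is not independent between them. By gene, the largest values for Mycl1, neither of them called, were those of Cenpe (-1.04 ± 0.35 SE, adjusted p = 0.209) and Ndc80 (-0.80 ± 0.45 SE, adjusted p = 0.547).

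Over both lines, with n = 4 arrays per vector and line as a term, 13 of 38 members (34.2%) rose with both vectors and 0 fell, against 16.3% of genes called higher and 14.7% lower. They were Ncapd2, Bub1b, Ncaph, Ttk, Kif20a, Ccnb2, Ncapg, Ccna2, Cenpa, Kif23, Smc4, Top2a and Kif2c. All 13 calls were lost when replicates were averaged, which leaves 1 value per group. With the mean of the probe sets of a gene, Ncaph (0.32, adjusted p = 0.0761), Ncapg (0.31, adjusted p = 0.0711), Smc4 and Kif2c (0.45, adjusted p = 0.0561) were not called. The calls of Kif2c and Top2a were the least stable, lost under 19 and 17 of 27 alternatives, and that of Kif23 was lost without 3151T4 control replicate 4. Of 6 condensin and topoisomerase genes 5 rose, of 7 kinases and cyclins 3, of 7 checkpoint and kinetochore genes 2, of 5 cytokinesis genes 2, of 6 spindle genes 1, and 0 of 3 passenger complex and 4 anaphase genes. Ncapd2 rose by 0.81 ± 0.14 (SE, adjusted p = 0.00128) and Bub1b by 0.74 ± 0.14 (SE, adjusted p = 0.00175). With Mycl1 alone 2 members rose, Bub1b (0.51 ± 0.14 SE, adjusted p = 0.0298) and Ncapd2 (0.52 ± 0.14 SE, adjusted p = 0.0318), 5.26% of members against 6.63% of genes called higher. Each Mycl1 call was lost without any of several arrays, and 0 members were called without control replicate 1 or Mycl1 replicate 1 of 3583T3, or without either control array or Mycl1 replicate 4 of 3151T4. With Nfib alone Ccnb2 rose (0.60 ± 0.17 SE, adjusted p = 0.0302), 1 of 38 against 5.3% of genes called higher, and 0 members were called without any 1 of the 4 control and Nfib arrays of 3151T4. Without the 2 arrays that go against their labels the counts were 12 for both vectors, 2 for Mycl1 and 1 for Nfib, with 17.7%, 10.4% and 5.21% of genes called higher.

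The differences between vectors do not use the control arrays, on which leukocyte markers were high. Those arrays still enter the tests through the shared estimate of spread. Over both lines, 8 members stood higher with both vectors than with Nfib and 0 lower, 21.1% of members against 8.89% of genes called higher and 8.04% lower. They were Kif20a (0.90 ± 0.18 SE, adjusted p = 0.0118), Ncapd2, Bub1b, Ncaph, Ttk, Kif23, Plk1 (0.52 ± 0.16 SE, adjusted p = 0.034) and Kif2c. Without the 2 arrays that go against their labels 6 did (13.1% of genes called higher), Plk1 and Kif2c no longer among them, and without Nfib replicate 4 or Nfib+Mycl1 replicate 3 of 3151T4 0 did. Within 3151T4, 10 stood higher and 0 lower, 26.3% of members against 12.8% of genes called higher and 16.9% lower, led by Bub1b (0.81 ± 0.19 SE, adjusted p = 0.00599), Kif20a, Aurka (0.56 ± 0.15 SE, adjusted p = 0.012) and Kif2c. Bub1 and Ube2c were also among the 10. Without 3151T4 Nfib replicate 3 or 4, 6 or 0 members were called there, and without Nfib+Mycl1 replicate 3 or 4, 2 or 5. Over both lines, fibroblast markers averaged 9.98 to 11.55 on arrays labelled Nfib and 9.81 to 10.16 on arrays labelled with both.

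Against Mycl1, adding the Nfib vector gave no called member. Over both lines 0 of 38 were called, against 3.77% of genes either way, and 8 (21.1%) had an unadjusted p under 0.05, against 23.4% of genes. The median was 0.09, and 1 was called without 3583T3 Mycl1 replicate 1 or 3151T4 Mycl1 replicate 3. Within 3151T4 0 were called, against 3.57% of genes, and 2 (5.26%) had an unadjusted p under 0.05, against 15.9%. Without either Mycl1 array of 3583T3 1 was called there. The difference for Ccnb2 was 0.59 ± 0.17 (SE, adjusted p = 0.075) and for Ncaph 0.55 ± 0.21 (SE, adjusted p = 0.197). Nfib against Mycl1 in 3151T4 gave 8 members lower, 21.1%, and 1 higher (background 15.8% lower and 18.1% higher). Beside Aurka, Tpx2 and Smc2, the lower ones were Bub1 (-0.60 ± 0.18 SE, adjusted p = 0.018), Cenpe (-0.76 ± 0.25 SE, adjusted p = 0.0283), Ndc80 (-0.90 ± 0.32 SE, adjusted p = 0.042), Ube2c (-0.40 ± 0.14 SE, adjusted p = 0.0422) and Cdc20 (-0.38 ± 0.14 SE, adjusted p = 0.0486), and the higher one was Ccnb2. Without Nfib replicate 3 or 4, or Mycl1 replicate 3 or 4, the count of 9 became 4, 5, 2 or 4. Over both lines 2 were lower, Bub1b (-0.43 ± 0.14 SE, adjusted p = 0.0365) and Ndc80 (-0.73 ± 0.23 SE, adjusted p = 0.0382), 5.26% of members against 11.1% of genes called lower, and 1 was without the 2 arrays that go against their labels (14.7% of genes called lower). Leaving out 1 array gave 0 without 3583T3 Mycl1 replicate 1, either Nfib array of 3151T4 or its Mycl1 replicate 4, 1 without either Nfib array of 3583T3 or 3151T4 Mycl1 replicate 3, 5 without 3151T4 control replicate 4 and 8 without 3583T3 Mycl1 replicate 2.

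Each of the 7 roles held a member called different between the untransfected lines. On control arrays 21 of 38 members were higher in 3583T3, 55.3%, and 0 lower (background 18.9% higher, 21.2% lower), with a median difference of 0.58 against 0.0046 over all genes. Both 3583T3 controls lay above both 3151T4 controls for 28 members (73.7%, against 37.1% of genes). Kif23 differed by 1.47 ± 0.25 (SE, adjusted p = 0.000405), Prc1 by 1.11 ± 0.19 (SE, adjusted p = 0.000305) and Nusap1 by 1.01 ± 0.15 (SE, adjusted p = 0.000121), each called under all 24 alternatives. Nusap1 read 11.23 and 11.15 in control, 11.29 and 10.97 under the Nfib label, 10.87 and 11.01 with Mycl1 and 10.99 and 11.23 under the label of both in 3583T3. In 3151T4 Nusap1 read 10.13 and 10.21 in control, 10.18 and 10.30 with Nfib, 10.63 and 10.45 with Mycl1 and 10.32 and 10.45 with both. No array of one line overlapped the other for Nusap1, Prc1 and Incenp. By role, 5 of 7 kinases and cyclins, 5 of 6 spindle genes and 3 of 5 cytokinesis genes were higher, and 2 of 7 checkpoint genes. Of the passenger complex Incenp was higher, while Aurkb (0.20) and Birc5 (0.02) were not called. Among anaphase genes Cdc20 and Ube2c were higher, and among condensin genes Ncapd2, Ncapg and Ncaph. With the mean of its probe sets Bub1, of the checkpoint genes, was not called (0.43, adjusted p = 0.0771). Leaving out 3151T4 control replicate 4 left 13. Leukocyte markers averaged 8.20 and 9.15 in the 3583T3 controls and 6.96 and 6.86 in the 3151T4 controls, and their part in the difference was not tested.

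Over all vectors 22 members, 57.9%, were higher in 3583T3 and 1, Cenpf (-0.34 ± 0.10 SE, adjusted p = 0.00902), was lower (background 27.7% and 30.9%). Kif23 (1.11 ± 0.13 SE, adjusted p = 3.62e-06), Nusap1 (0.76 ± 0.09 SE, adjusted p = 4.02e-06), Prc1 (0.81 ± 0.10 SE, adjusted p = 5.57e-06) and Plk1 (0.71 ± 0.11 SE, adjusted p = 5.21e-05) led. With the mean of its probe sets the value for Nusap1 was 0.39 (adjusted p = 0.00301). For Bub1 that setting moved the value from 0.56 to 0.24 (adjusted p = 0.128), not called. The median difference between lines was 0.58 on control arrays, 0.39 on arrays labelled Nfib, 0.08 with Mycl1 and 0.13 on arrays labelled with both, and 35, 34, 25 and 27 of 38 members were above 0. The tests of the response differences above bear on these medians, which are given as a description.

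Other mitotic genes were read from a list of 102. In 3151T4 with Mycl1, 13 rose (12.7%) and 0 fell, against 7.77% and 8.48% of all genes. With both, 26 rose (25.5%) and 2 fell (1.96%), against 14.6% and 15.2%. With Nfib 2 rose and 2 fell (1.96% each), against 7.91% and 5.86%. Trip13, the ATPase that takes checkpoint complexes apart, rose with Mycl1 by 0.91 ± 0.18 (SE, adjusted p = 0.00425), and stood lower with Nfib than with Mycl1 by -1.43 ± 0.18 (SE, adjusted p = 3.29e-05). Cenph, of the inner kinetochore, rose with both by 0.95 ± 0.17 (SE, adjusted p = 0.00144), and Haus1, of the augmin complex that branches microtubules, by 1.01 ± 0.19 (SE, adjusted p = 0.00158). Cdc25b, a phosphatase that activates Cdk1, rose with Nfib by 0.63 ± 0.13 (SE, adjusted p = 0.00417). Cenpm, also of the inner kinetochore, rose with Nfib in 3151T4 by 1.01 ± 0.24 (SE, adjusted p = 0.0125) and on arrays labelled Nfib in 3583T3 by 0.86 ± 0.24 (SE, adjusted p = 0.0397). Cdc25a, another activator of cyclin-dependent kinases, rose with Mycl1 over both lines by 0.62 ± 0.16 (SE, adjusted p = 0.0301), as did Pmf1, a kinetochore protein, by 0.81 ± 0.17 (SE, adjusted p = 0.0127). Septin9, a cytokinesis gene, stood lower with Nfib than in control in 3151T4 by -0.79 ± 0.21 (SE, adjusted p = 0.0212). On arrays labelled with both in 3583T3, the spindle gene Haus8 stood lower than control by -1.26 ± 0.30 (SE, adjusted p = 0.0128). Between the untransfected lines, 32.4% of the list were higher in 3583T3 and 3.92% lower, against 18.9% and 21.2% of all genes. Over both lines 20 of the 102 rose (19.6%) and 5 fell (4.9%) with both vectors, against 16.3% and 14.7% of all genes, so the share that rose was near that background.

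DNA replication and S phase genes, a list of 40, were read beside them. In 3151T4, 7 rose with Mycl1 (17.5%, against 7.77% of all genes) and 21 with both (52.5%, against 14.6%), with 0 lower in each, and medians of 0.45 and 0.52. Over both lines 8 rose and 0 fell with Mycl1 (20%, against 6.63% called higher), and 18 rose and 1 fell with both (45%, against 16.3%), with medians of 0.40 and 0.37, against 0.16 and 0.17 for the 38 mitotic genes. With Nfib 1 rose and 1 fell in 3151T4 (2.5% each, against 7.91% and 5.86%). The difference between these lists was not tested.

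Of the 38 members, 14 were never called, with the probe set read for each, in the 18 comparisons of vectors. They were Nek2, Mad2l1, Cenpf, Aurkb, Birc5, Incenp, Kif11, Kif4, Nusap1, Prc1, Racgap1, Ect2, Pttg1 and Cdca3. Of 26 other probe sets for members with several, 25 had the sign of the chosen one for Mycl1 against control in 3151T4, 21 for both vectors and 19 for Nfib. In 3583T3 these counts were 16, 16 and 19. Aurkb, Incenp, Kif2c, Prc1 and Cdc20 were read by probe sets whose type can bind more than 1 transcript.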

How the data were processed

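Per the labels' protocols, biotin-labelled target was made from 100 ng of Trizol-extracted RNA after NuGEN Ovation V2 amplification. The submitters' processing notes name GCRMA 2.20.0 and R 2.11.0, and the authors deposited 1 GCRMA signal per probe set and array. The deposited values were taken as log2 signals, from their range and the usual output of GCRMA, since the labels do not state the scale. GCRMA removes background by probe sequence and equalises array distributions, so a shift shared by most genes cannot be seen.

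Of 22690 probe sets, 64 controls, 691 with several symbols and 1555 with none were left out, and each gene kept its probe set of highest mean. Genes above log2 4 on at least 2 arrays were tested. Limma 3.58.1 in R 4.3.3 fitted lmFit and eBayes with a mean-variance trend: vector plus line for comparisons over both lines (11 residual degrees of freedom), and 8 group means for comparisons within a line and between lines (8 residual degrees of freedom). P-values were Benjamini-Hochberg adjusted over the 8777 genes in each of 23 comparisons and called under 0.05, and all tests were two-sided. The scripts were tested on simulated data.

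The members, gene lists, tests and named genes were chosen with earlier results of these data known. Values on every array are given for 12 listed members, of which Ccnb1 was not analysed here, and for up to 4 called members of smallest p per comparison. From the other mitotic genes up to 3 called genes per comparison could be named. Replicates 1 and 2 were 3583T3 and replicates 3 and 4 were 3151T4. Over 12 pairs of vectors within a line, same-numbered arrays had correlations of deviations from -0.74 to 0.31, over 0.1 in 3, and the numbers were not taken as pairs. The lowest was that of Nfib with Nfib+Mycl1 in 3583T3, the groups that hold the arrays going against their labels. The 3 over 0.1 were all in 3151T4, among control, Nfib and both (0.28, 0.19 and 0.31). Pairing within that line was not tested. Correlations between replicates were 0.979 to 0.995, and 0 arrays were identical. The number of arrays limits the precision. Alternatives covered the filter, the probe set rule, scaling, array weights, the variance trend, a replicate block, averaged replicates, group means, and leaving out arrays.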

Additional observations from a re-analysis of the deposited data

Results flagged for a closer look

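In 152 groups of 4 arrays (1 gene with 1 vector label over both lines), 4 had an array set far apart from the other 3 by Dixon's criterion. Chance flags about 1 in 20 groups drawn from a single population. These groups mix the lines, which differ for many members, so that rate does not apply to them as it stands. Cdca3 read 10.79 on 3151T4 Nfib replicate 4 against 11.01 to 11.05 on the other arrays labelled Nfib. Ccnb2 read 11.17 on 3583T3 Mycl1 replicate 1 against 10.55 to 10.61 with Mycl1 elsewhere, and that array was also the highest of the Mycl1 arrays for Ncapd2, Ncaph and Kif20a. Smc4 read 11.68 on 3151T4 Mycl1 replicate 3 against 11.34 to 11.35. Smc2 read 11.16 on 3151T4 Nfib+Mycl1 replicate 3 against 11.34 to 11.37. A difference between the lines was called for Ccnb2, whose response to Nfib was lower in 3583T3 by -0.93 on the log2 scale (limma, interaction of line and vector), with 1 of the 2 Nfib arrays of 3583T3 going against its label.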

How the results depend on the processing

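Of 110 called member results under 2781 alternatives, 2406 kept their call, 375 lost it and 0 reversed, and 30 results never lost it. Averaging replicates left 0 called members with Nfib, Mycl1 and both against control over both lines, 0 for both against Nfib and for Nfib against Mycl1, and 14 between lines. The replicate block takes same numbers within a line as pairs. With it, Mycl1 against control over both lines gave 0 and Nfib against Mycl1 0. Both against control in 3583T3 gave 0 and Mycl1 against control in 3151T4 gave 2. The same block gave 11 for both against control over both lines. With array weights, both against Nfib gave 16 over both lines and 16 in 3151T4, Nfib against Mycl1 12 and 15, and in 3151T4 Nfib gave 3, Mycl1 10 and both against Mycl1 1. With the mean of probe sets, Nfib against Mycl1 gave 5 over both lines and 14 in 3151T4, and in 3151T4 Mycl1 gave 11 and both against Nfib 16. The same setting gave 1 for both against Mycl1 in 3583T3 and 1 for the line difference of both vectors. A second quantile normalization gave 4 for Nfib against Mycl1 over both lines, and 1 for both against Mycl1 in each line. For Nfib against Mycl1 over both lines, no filter gave 1, median centring 5, group means 8 and the set without the 2 doubted arrays 1. Group means gave 1 for both against Mycl1 over both lines. The line difference of Nfib gave 0 without the 2 doubted arrays. The cause was not tested. Apart from the set without the 2 doubted arrays, the share of all genes called under these settings, or with 1 array left out, is not given. The counts are therefore not read as a stronger or weaker response of the members. Leaving out 1 array gave these ranges of called members. Over both lines they were 0 to 1 for Nfib, 0 to 3 for Mycl1, 0 to 1 for both against Mycl1, 0 to 9 for both against Nfib and 0 to 8 for Nfib against Mycl1. In 3583T3 they were 0 to 1 for Nfib, 0 to 3 for both, 0 to 5 for both against Mycl1 and 0 to 3 for Nfib against Mycl1. In 3151T4 they were 0 to 11 for Mycl1, 4 to 14 for both, 0 to 1 for both against Mycl1, 0 to 10 for both against Nfib and 2 to 13 for Nfib against Mycl1. They were 13 to 23 between control lines, and 0 to 1 for each of the 3 response differences. Median centring moved the member median for Nfib in 3151T4 from 0.08 to -0.0036, so its sign is not settled. With 2 arrays per group, differences near the spread of replicates were not detectable.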
